A study of Mus musculus with 17 samples.

Results

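The 5 wild type libraries of the series, of 17 in all, were described by themselves, with no contrast between groups. They were chosen by their source label, which reads WT-d30 with no agent added, and each is the glomeruli-enriched kidney cortex of a separate lean BTBR mouse killed at 24 weeks of age. BTBR is an inbred mouse strain on which loss of leptin leads to obesity, diabetes and kidney disease. The other libraries came from leptin-deficient BTBR ob/ob mice, bred from heterozygotes of the line BTBR.V(B6)-Lepob/WiscJ. Of these, 5 mice were given saline and 7 the drug atrasentan, which blocks the type A receptor for endothelin, in drinking water. The dose was 5 mg/kg daily, begun at 18 weeks of age and kept up for 6 weeks. All mice had a standard diet, and what d30 in the genotype label stands for is not stated. The wild type mice are the study's lean controls for the 24-week time point, and no day or hour of tissue collection is given in the sources used here. They are numbered 1 to 5 in the order of deposition, which only names them.

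The glomerulus is the filter of the kidney, a tuft of capillaries held together by mesangial cells and covered by podocytes, whose foot processes and slit diaphragms retain plasma protein. Its fenestrated endothelium shares a basement membrane of collagen IV and laminin with the podocytes. Parietal epithelial cells line the capsule around the tuft, and renin-producing cells sit at its arteriole. Cortex enriched in glomeruli still holds pieces of tubule and vessel, so its RNA is a mixture. In bulk RNA, fewer cells of a type and less RNA per cell cannot be told apart.

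Gene reads per library ran from 29161833 to 40965108, with the most in wild type 1. Between 23901 and 24877 genes had a read, protein-coding genes took 98.6% ± 0.104 of gene reads and mitochondrially encoded genes took 0.662% ± 0.129 (SD, n = 5). No library stood in for another: the chi-square of the counts per degree of freedom was between 29.8 and 61.0 over the 10 pairs. Reads on 4 Y-linked genes numbered 1 to 4 per library and Xist lay between 51.4 and 69.5 CPM (reads of a gene as a fixed-scale share of all gene reads, adjusted by TMM), the female type in all 5. The labels give the same batch for every library.

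Of 53379 genes in the table, 14281 reached 1 TPM in all 5 animals, and 12417 of these are protein-coding. TPM is the read count per exonic base, scaled to the same total in every library, and it was used for every comparison of levels between genes. The median of those 14281 genes was 20.6 TPM, 2101 genes were over 100 TPM and 98 were over 1000 TPM. The reads were spread over many genes: the 10 most read genes took 4.44% ± 0.285 of gene reads, the 100 most read took 16.7% ± 0.463 and the 1000 most read took 47.2% ± 0.618.

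Igfbp7, a secreted insulin-like growth factor binding protein (ENSMUSG00000036256, GRCm38 chr5:77349240-77408041), had the highest level, at 14545 ± 1740 TPM (SD, n = 5). Its 5 animals read 15324, 17216, 13610, 13688 and 12884 TPM, so none stood apart. Gpx3, the secreted glutathione peroxidase that the kidney tubule makes for plasma (ENSMUSG00000018339, chr11:54902453-54910377), followed at 11655 ± 4305 TPM. It was the less even of the pair, with 6745 TPM in wild type 1 and 18530 TPM in wild type 4. Tmsb4x, the actin-binding thymosin beta, stood at 9555 ± 1706 TPM and Itm2b, a membrane protein, at 5319 ± 745 TPM. Plat, tissue plasminogen activator (ENSMUSG00000031538, chr8:22757727-22782844), was the gene with the most reads, 0.841% of all gene reads, and at 4734 ± 838 TPM it was the eighth per length. B2m, the light chain of class I molecules, stood at 5434 ± 1639 TPM. H2-Q6 (4155 ± 591 TPM) and H2-D1 (2827 ± 1114 TPM) are genes of the same class, whose near-identical copies make their own values uncertain.

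Cell type genes stood among the 25 highest. Ehd3, a membrane trafficking protein of glomerular endothelium (ENSMUSG00000024065, chr17:73804134-73832094), reached 2340 ± 243 TPM and Myl9, a myosin light chain of contractile cells, 2448 ± 508 TPM. Sparc (2809 ± 233 TPM) encodes a matrix protein, Cst3 (2698 ± 456 TPM) the protease inhibitor cystatin C and Ccn2 (2411 ± 999.8 TPM) connective tissue growth factor. Slc9a3r2 (2570 ± 158 TPM) is a scaffold under apical membranes, and Sfrp2 (2323 ± 337 TPM) is a secreted Wnt modulator. Others of the 25 were Laptm4a, Plpp1, Cd81, Serinc3, Ifitm3, mt-Cytb, mt-Nd1 and a pair of short RNA genes, between 2352 and 11648 TPM. Those short genes, Gm23935 (57 exonic bases) and Mir6236 (123 exonic bases), hold only 189 and 104 CPM, and their place comes from division by a length near that of a 50-base read. Of the 100 genes with the highest TPM, 94 are protein-coding. Among them the gene lists found 7 immediate early, 6 mitochondrially encoded, 3 podocyte (Podxl and Cdkn1c among them) and 3 antigen presentation genes. Glomerular endothelium had 2 (Plat, Ehd3) and general endothelium 2 (Eng, Emcn). The mesangium, renin cell, smooth muscle and tubular injury lists had 1 each. No list of a tubule segment had a member there, but Gpx3, which the kidney tubule makes, is in none of the lists.

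**Figure D1:**
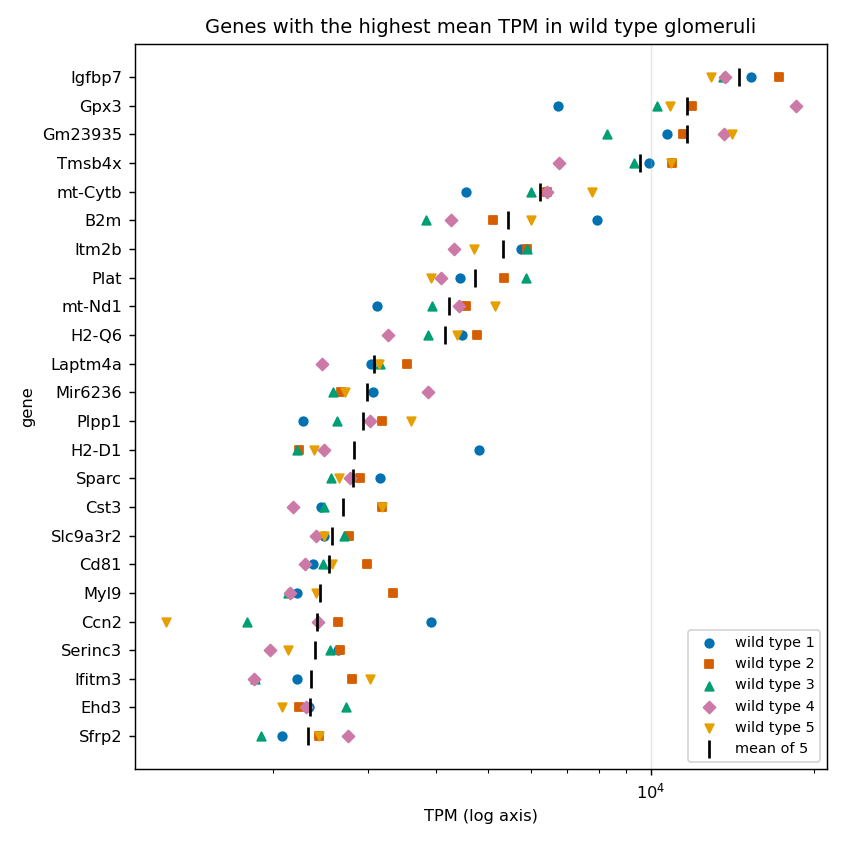
TPM (log axis) of 24 of the 25 genes with the highest mean, one symbol per wild type animal and a black mark for the mean of 5. Igfbp7 leads at 14545 TPM. The 5 animals lie close together for Slc9a3r2 and far apart for Gpx3 and Ccn2.

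Reads that aligned to several places were not assigned to genes, and they made up 23.4% to 28.1% of the reads in a library. The 80 genes of cytosolic ribosomal proteins, which have many processed copies in the genome, took only 0.170% ± 0.0303 of gene reads, with a median of 11.4 TPM and a highest value of 430 TPM for Rpl4. Of the 13 mitochondrially encoded protein genes 6 were under 1 TPM, of which 5 had no read, while mt-Cytb stood at 6233 ± 1152 TPM. The level of such genes is therefore not readable from this table, and a low value there is no sign of low expression.

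The levels of 24 cell type lists were then set in order by the median TPM of their members in each animal, averaged over the animals. Renin cells came first at 595 ± 279 TPM, but on 2 genes, and held rank 4 by CPM and rank 7 by the log2 values of the authors' deposited table. Mesangium (558 ± 63.2), endothelium (494 ± 40.0), glomerular endothelium (263 ± 14.3) and podocytes (192 ± 62.7) followed, and each of these 4 lists stood above that of every tubule segment. Renin cells were above mesangium in only 2 of 5 animals. Mesangium was above endothelium in 4 of 5 animals, endothelium above glomerular endothelium in 5, and glomerular endothelium above podocytes in 4. A list of red cell genes stood at 127 ± 77.2 TPM. Proximal tubule, at 74.7 ± 23.9 TPM, was the highest tubule list, followed by distal and connecting tubule (42.1 ± 14.1) and thick ascending limb (32.8 ± 13.4). Proximal tubule was above distal tubule in 5 of 5 animals and distal tubule above thick ascending limb in 3, so the order of the latter 2 is not settled. The median of a list depends on which genes were put in it, so the order is one of these lists and not of cell numbers.

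**Figure D2:**
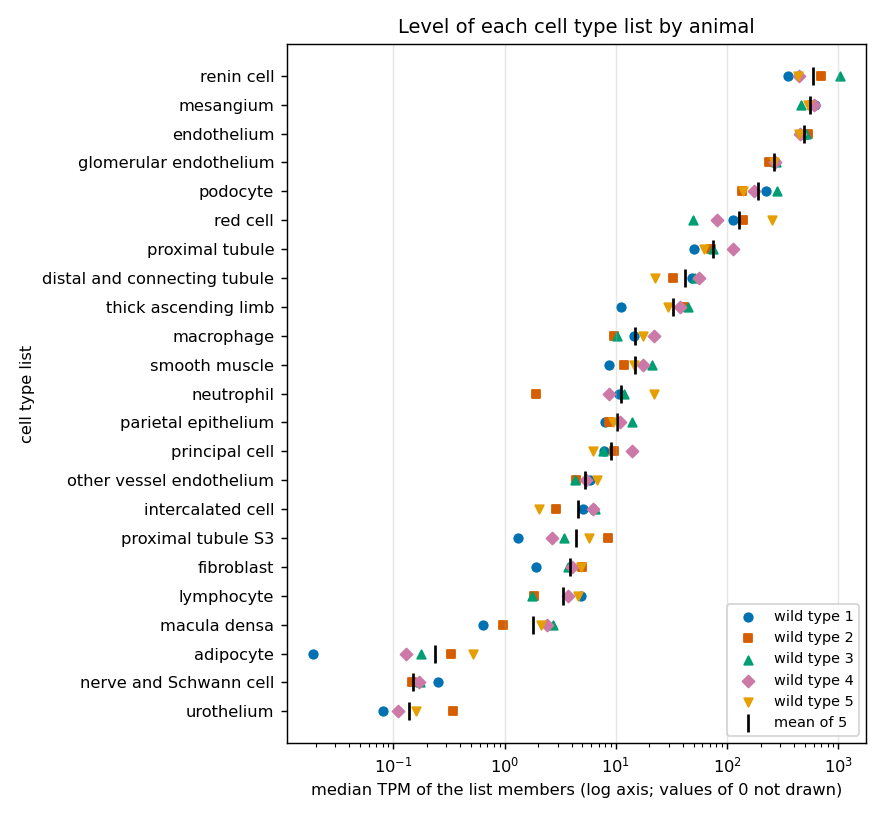
Median TPM (log axis) of the members of each cell type list in each of the 5 wild type animals, with a black mark for the mean. The renin cell, mesangium, endothelium, glomerular endothelium and podocyte lists lie between 192 and 595 TPM, the tubule lists at 74.7 TPM or below and parietal epithelium at 10.2 TPM. The adrenal list has a median of 0 and is not drawn, nor are single values of 0.

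All 23 podocyte genes reached 1 TPM in all 5 animals, and Dach1 had the lowest mean, at 20.95 TPM. Podxl, the podocalyxin of the foot process coat, stood at 1956 ± 438 TPM and Cdkn1c, a cell cycle inhibitor kept by mature podocytes, at 1785 ± 573 TPM. Synpo, an actin regulator of the foot process, reached 906 ± 128 TPM. Vegfa, the growth factor that podocytes supply to the endothelium, reached 674 ± 182 TPM. Nphs1, the nephrin of the slit diaphragm, was at 98.3 ± 18.4 TPM, and the transcription factor Wt1 at 90.9 ± 23.7 TPM. Podocyte genes together held 1.51% ± 0.281 of gene reads.

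Endothelial genes were also abundant, with a median of 494 TPM for the general list against 192 TPM for podocytes. Of the general list, Eng (endoglin) stood at 1949 ± 218 TPM, Emcn (endomucin) at 1268 ± 179 TPM and Icam2 at 749 ± 128 TPM. The VEGF receptor Kdr was at 892 ± 266 TPM, Pecam1 at 568 ± 56.0 TPM and the junction cadherin Cdh5 at 202 ± 37.7 TPM. All 7 genes of glomerular endothelium were present, from Lpl (lipoprotein lipase, 107 ± 15.4 TPM) to Plat. The transcription factor Gata5, a marker of that endothelium, had 269, 238, 274, 264 and 267 TPM in the 5 animals, the most even gene of its list. Of other vessels, Plvap (515 ± 73.1 TPM) and Sox17 (216 TPM) were high, while Vwf, the von Willebrand factor of larger vessels, was at 1.42 ± 0.326 TPM and Prox1, of lymphatics, at 0.525 ± 0.194 TPM.

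Mesangial genes lay in a narrow band, from the integrin Itga8 (433 ± 97.9 TPM) to the protease inhibitor Serpine2 (1198 ± 221 TPM). Gata3 stood at 434 ± 96.9 TPM, Pdgfrb, the receptor that recruits mesangial cells, at 469 ± 214 TPM and the angiotensin receptor Agtr1a at 558 ± 63.2 TPM. The smooth muscle genes beside them were uneven: Myl9 was among the 25 highest of all genes, Smtn stood at 214 ± 37.8 TPM and Acta2 at 174 ± 61.6 TPM, whereas Myh11 (14.8 ± 4.76 TPM) and Tagln (3.31 ± 0.770 TPM) were low. Ren1, renin itself, reached 1165 ± 554 TPM, with 699, 1372, 2044, 862 and 846 TPM in the 5 animals. Of the parietal epithelium, Vcam1 was at 84.7 ± 51.5 TPM, Cldn1 at 18.1 ± 5.25 TPM and Pax2 at 0.976 ± 0.411 TPM. The 12 basement membrane genes ran from Hspg2, the proteoglycan perlecan (13.7 ± 7.45 TPM), to the collagen IV gene Col4a1 (593 ± 232 TPM), with Col4a3 at 174 ± 54.1 TPM and the laminin gene Lamb2 at 269 ± 74.9 TPM.

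Tubule genes were present in every library. In the proximal tubule, all 22 genes reached 1 TPM in all 5 animals, led by Miox (inositol oxygenase, 737 ± 189 TPM), the phosphate transporter Slc34a1 (548 ± 245 TPM) and Gatm (441 ± 156 TPM). Megalin (Lrp2) was at 10.3 ± 3.57 TPM and its partner Cubn at 2.96 ± 1.05 TPM. In the S3 segment, Atp11a was at 20.7 ± 3.62 TPM and Slc7a13 at 0.0407 ± 0.0641 TPM. Umod, the uromodulin that the thick ascending limb secretes, stood at 516 ± 242 TPM and its salt transporter Slc12a1 at 206 ± 109 TPM. Klk1, kallikrein, led the distal list at 590 ± 159 TPM, above the salt transporter Slc12a3 at 42.1 ± 14.1 TPM. In the collecting duct, the water channel Aqp2 was at 95.1 ± 39.4 TPM and the intercalated cell gene Slc26a4 at 11.9 ± 5.26 TPM. The macula densa gene Nos1 was at 1.59 ± 0.890 TPM.

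Genes of white blood cells and stroma varied in level. Lyz2 (768 ± 467 TPM) took 54.1% of the macrophage list, whose other leading genes were Tyrobp (95.3 ± 46.2 TPM) and Fcer1g (79.4 ± 33.8 TPM); Csf1r, the macrophage growth factor receptor, was at 20.3 ± 9.62 TPM. The lymphocyte genes Cd3e and Cd79a were at 1.62 ± 0.759 and 6.55 ± 3.72 TPM, and Jchain, of antibody-secreting cells, at 76.8 ± 47.1 TPM. Fibroblast genes were low, with Col1a2 at 29.4 ± 3.74 TPM and Dcn at 6.38 ± 2.29 TPM. Most listed genes of tissue next to the kidney had a mean under 1 TPM: 5 of 7 adipocyte, 4 of 5 adrenal and 4 of 4 urothelial genes. The adipocyte genes Adipoq and Plin1 were at 0.461 ± 0.544 and 0.0882 ± 0.0472 TPM, and the urothelial Upk3a at 0.178 ± 0.164 TPM. Of the adrenal genes, Cyp11b1 had no read and Star was the highest, at 2.52 TPM. Fabp4, in the adipocyte list, was at 82.4 ± 21.2 TPM and is also made by endothelium.

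The endothelin system, whose A receptor atrasentan blocks, was expressed at this baseline. Endothelins are small vasoconstrictor peptides cut from precursors by converting enzymes, and the B receptor of endothelium also clears them. Edn1, the main endothelin, stood at 83.7 ± 9.27 TPM, with 97.8, 82.8, 84.0, 71.8 and 82.3 TPM in the 5 animals. Edn3 was at 1.98 ± 1.19 TPM and Edn2 at 0.563 ± 0.697 TPM. The converting enzyme Ece1 reached 348 ± 76.9 TPM, against 0.0174 ± 0.0175 TPM for Ece2. The B receptor Ednrb stood at 229 ± 71.8 TPM and the A receptor Ednra at 24.0 ± 6.32 TPM, so Ednrb was the higher in all 5 animals. Ednrb was lowest in wild type 1 (139 TPM), the animal with the highest Ednra by CPM (52.9 against 26.6 to 37.6). Clu, the clusterin named in the study's title, was at 196 ± 26.7 TPM, between 155 and 223. The leptin receptor Lepr was at 3.38 ± 0.697 TPM, and leptin itself (Lep) had no read.

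How far the 5 animals differed was measured by the biological coefficient of variation, the part of the relative spread between animals that exceeds counting noise, fitted with edgeR on 15410 genes with enough reads. It was 0.211 in common over all genes, with a median of 0.186 per gene and of 0.157 among the 10026 genes at 10 CPM or more. The same fit gave 0.272 over the 5 saline libraries and 0.291 over the 7 atrasentan libraries; these differences were not tested. Only 87 genes (0.565%) had a coefficient of 0.5 or more, and 1980 (12.8%) had 0.3 or more. Without wild type 1 there were 36 genes with a biological coefficient of variation of 0.5 or more. Among genes at 10 CPM or more, 17 reached 0.5 and 265 reached 0.3, or 2.64%. The steadiest were Hspa4, Fbh1, Pitpnb, Mkrn1, Sirt7, H2afy, Actr3, Scamp1, Ate1 and Nmt1, each with a highest animal at most 1.07 times the lowest. Hspa4, a chaperone, read 104, 105, 107, 104 and 105 CPM.

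The widest 20 genes at 10 CPM or more were, in order, Hspa1b, Mocs1, Per2, Hspa1a, Arntl, Dbp, Kap, Atf3, Fosb, Per3, Epm2a, Nfil3, Slc10a6, Hsph1, Dock2, Zbtb16, Snhg11, Hbb-bt, Tef and Mmp15. Of these, 6 are of the 20 clock genes, 3 of the 10 heat shock genes and 2 of the 22 immediate early genes. Kap is of the proximal tubule list and Hbb-bt of the red cell list. How many genes of each list are among the 10026 ranked was not counted. The lists were chosen with earlier results of these data known. In all, 67 of the 10026 genes had a highest animal at 4 times the lowest or more.

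**Figure D3:**
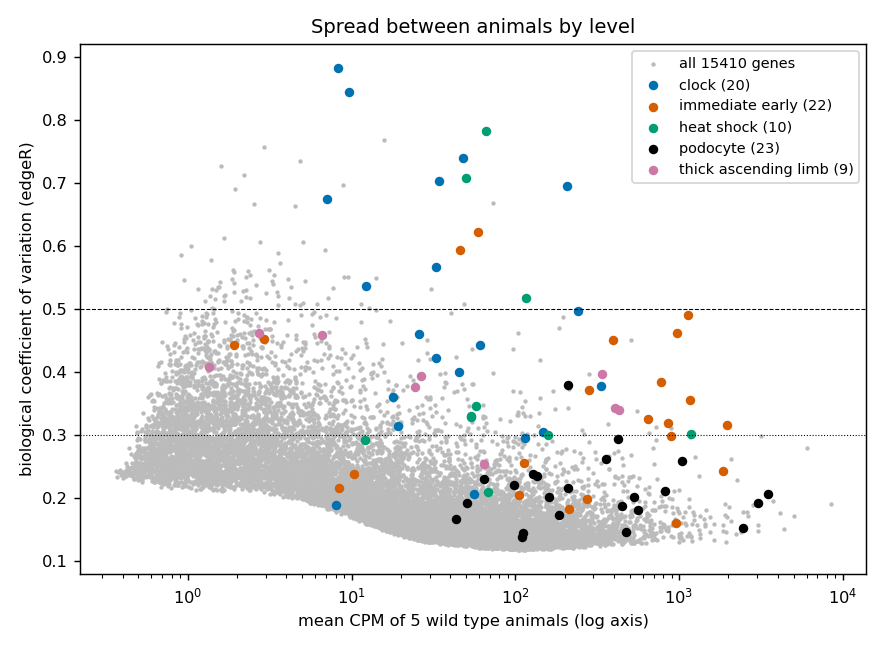
Biological coefficient of variation against mean CPM (log axis) for the 15410 genes fitted, with 5 lists in colour and lines at 0.3 and 0.5. Of 20 clock genes 17 lie above the line at 0.3, and of 23 podocyte genes 1, against 12.8% of all genes fitted. Among genes at 10 CPM or more the share is 2.64%.

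The circadian clock is a loop in which Arntl with Clock or Npas2 switches on the Per, Cry and Nr1d genes, whose products then shut Arntl and its partners down. Dbp, Tef and Hlf are output factors that act through a separate motif, and Nfil3 acts against them at that motif. Of 20 clock genes, 8 had a coefficient of 0.5 or more and 17 of 0.3 or more, against 0.565% and 12.8% of all genes fitted. The median of the list was 0.451. Dbp (ENSMUSG00000059824, chr7:45705088-45710203) read 426, 139, 380, 46.7 and 37.8 CPM in wild type 1 to 5, a highest value 11.3 times the lowest. Arntl (ENSMUSG00000055116, chr7:113207465-113314126) read 4.84, 31.9, 7.74, 57.3 and 69.2 CPM, 14.3 times. The animals thus stood in opposite order in these genes, with wild type 1 and 3 high in Dbp, wild type 4 and 5 high in Arntl, and wild type 2 between.

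That order held over most of the list. In 13 of the 20 genes wild type 1 and 3 were the highest and wild type 4 and 5 the lowest, in 3 genes (Arntl, Npas2, Nfil3) the reverse, and wild type 2 was the middle animal in 16. Per2 read 95.3, 48.1, 80.5, 8.30 and 6.14 CPM, and Ciart, a repressor of the loop, 21.6, 7.16, 17.3, 0.963 and 1.03 CPM. Npas2 had the largest spread, from 0.469 CPM in wild type 1 to 19.5 CPM in wild type 4. Clock itself ranged only from 43.6 to 73.6 CPM. In the saline libraries Dbp ranged from 205 to 351 CPM (1.71 times) and in the atrasentan libraries from 249 to 475 CPM (1.90 times). Arntl ranged 1.55 times with saline and 3.53 times with atrasentan. The spread of the list mean was 0.53 on the log2 scale in wild type, 0.16 with saline and 0.18 with atrasentan. These differences in spread were not tested. The CPM of each group was scaled within that group.

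**Figure D4:**
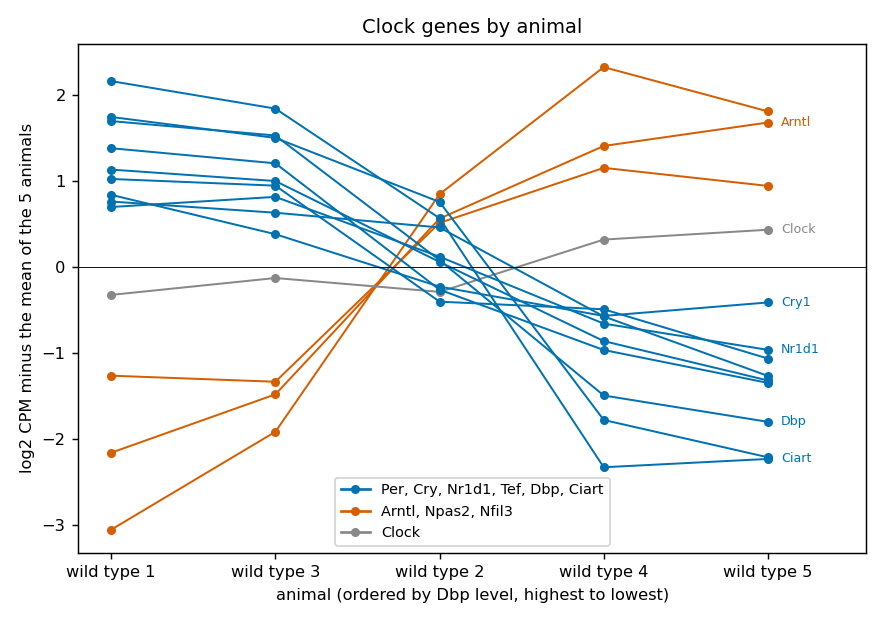
Log2 CPM minus the mean of the 5 animals for 13 clock genes, with the animals set from the highest Dbp to the lowest and each line a gene. Blue genes (such as Dbp, 426 to 37.8 CPM) run down, orange genes (Arntl, Npas2, Nfil3) run up, and Clock (grey) stays nearer to 0.

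The promoters of these genes were searched on both strands for the motifs that clock factors bind, in windows of 250 bases before to 50 after the start (RefSeq, GRCm38.p6, the C57BL/6J reference and not BTBR). The E-box CACGTG is the site of Arntl and Clock, TAGGTCA is the core of the element bound by Ror and Nr1d factors, and TTATGTAA or TTACGTAA is the D-box of Dbp, Tef and Nfil3. Of 16 clock genes with a window in the table, 5 held an E-box (Per1, Cry1, Tef, Ciart, Bhlhe41), 2 the Ror core (Arntl, Nfil3) and 1 a D-box (Per3). The shares of all 27025 genes in the table with a match in any of their windows were 8.09%, 2.97% and 1.23%, and of all 32851 windows 7.15%, 2.61% and 1.06%. The sequences below were picked because they hold a match, which is shown in capitals, and belong to genes that spread widely. Dbp, Nr1d2 and Npas2 held none of these letters in their windows. The match starts 116, 58 and 44 bases before the start in Ciart, 127 before it in Tef and 205 and 158 before it in Per3; in Arntl it lies 30 bases after, and only that site is printed. A match is a string of letters and not a measured site.
Ciart, E-box, chr3:95882229-95882478, minus strand: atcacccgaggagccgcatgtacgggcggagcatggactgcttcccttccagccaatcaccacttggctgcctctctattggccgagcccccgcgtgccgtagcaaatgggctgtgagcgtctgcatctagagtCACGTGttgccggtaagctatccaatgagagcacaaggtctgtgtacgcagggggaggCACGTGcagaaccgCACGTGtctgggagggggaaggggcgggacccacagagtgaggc
Tef, E-box, chr15:81802423-81802672, plus strand: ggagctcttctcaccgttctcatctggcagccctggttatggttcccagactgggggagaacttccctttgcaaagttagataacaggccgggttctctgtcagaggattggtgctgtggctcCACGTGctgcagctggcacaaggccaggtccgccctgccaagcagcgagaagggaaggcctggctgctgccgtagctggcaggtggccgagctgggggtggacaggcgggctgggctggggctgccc
Per3, D-box, chr4:151044666-151044915, minus strand: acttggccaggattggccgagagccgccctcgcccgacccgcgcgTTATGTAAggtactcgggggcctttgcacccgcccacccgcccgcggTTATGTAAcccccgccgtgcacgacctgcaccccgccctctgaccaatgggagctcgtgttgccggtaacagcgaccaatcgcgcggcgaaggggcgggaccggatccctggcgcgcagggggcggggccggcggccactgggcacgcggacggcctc
Arntl, Ror core, chr7:113207531-113207557, plus strand: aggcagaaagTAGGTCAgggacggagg

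Heat shock genes encode chaperones that cells make when proteins unfold. Wild type 2 was the highest animal for all 10 of them, and wild type 5 the lowest for 7. For this and the other lists, the share of all genes fitted that was highest or lowest in each animal was not computed. Such counts of members are therefore given without that background. The library of wild type 2 also had the largest share of multi-mapped reads (28.1% against 23.4% to 26.4%), the smallest share outside genes (6.26% against 7.81% to 8.58%), the fewest genes with a read (23901) and the highest score on the first principal component (39.5 against -25.2 to 3.32), whose part in these values was not tested. Hspa1b (ENSMUSG00000090877, chr17:34956436-34959238) read 67.1, 200.5, 21.5, 35.9 and 6.59 CPM, the widest of all genes at 10 CPM or more, and its near-identical copy Hspa1a read 43.8, 144, 22.6, 34.1 and 6.40 CPM. Reads shared by these copies were not assigned, so both values are uncertain in level. Hsph1, a partner chaperone with a sequence of its own, read 103, 282, 97.8, 58.5 and 39.8 CPM. The smallest spread of the list was that of Hspd1, a mitochondrial chaperonin, from 52.8 to 101 CPM. Of the 10 genes 3 had a coefficient of 0.5 or more and 7 of 0.3 or more. The shares of all genes fitted were 0.565% and 12.8%. The list mean had an SD of 0.80 on the log2 scale, and of 0.44 without wild type 2. With saline the SD of the list mean was 0.33 and with atrasentan 0.40.

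The heat shock element was searched on both strands as GAA, any 2 bases, TTC, any 2 bases and GAA. It was present in 3 of the 8 heat shock genes in the table (Hsph1, Hspe1, Hspd1), against 0.662% of all genes in the table and 0.603% of all windows, and not in those of Hspa1a and Hspa1b. The Hspe1 window printed below lies within the span of Hspd1 on the opposite strand (chr1:55077835-55088243). Hspe1 and Hspd1 may therefore be counted for the same site, which was not checked. The Hspe1 window holds 2 matches that overlap, from 89 and 84 bases before the start, and the Hsph1 site lies 15 bases after it, so only that site is printed. Hspe1, the co-chaperonin of Hspd1, read 9.36, 20.8, 10.6, 9.09 and 10.6 CPM, with wild type 2 apart from the rest.
Hspe1, heat shock element, chr1:55087898-55088147, plus strand: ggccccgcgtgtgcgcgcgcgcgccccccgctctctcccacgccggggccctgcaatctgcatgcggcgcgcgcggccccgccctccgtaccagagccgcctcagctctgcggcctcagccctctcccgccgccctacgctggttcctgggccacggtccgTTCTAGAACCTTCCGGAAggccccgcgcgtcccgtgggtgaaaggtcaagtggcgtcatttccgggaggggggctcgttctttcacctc
Hsph1, heat shock element, chr5:149636280-149636308, minus strand: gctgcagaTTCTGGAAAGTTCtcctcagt

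Immediate early genes encode factors that cells switch on fast, without new protein, after a stimulus. They were abundant, with a list median of 535 TPM, and held 1.27% ± 0.441 of gene reads. Fos (chr12:85473890-85477273) read 849, 573, 1726, 2160 and 379 CPM, Egr1 read 830, 478, 1277, 1879 and 361 CPM, and Jun 787, 626, 1153, 1366 and 527 CPM. Wild type 4 was the highest animal for 13 of the 22 genes and wild type 5 the lowest for 19. Atf3 had the largest coefficient of the list, with 114, 15.5, 51.1, 100.2 and 13.5 CPM, and there wild type 1 was the highest. Klf2, a flow-responsive factor of endothelium, had the smallest, from 788 to 1117 CPM. Of the 22 genes 2 had a coefficient of 0.5 or more and 13 of 0.3 or more. Over all genes fitted the shares were 0.565% and 12.8%.

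The balance of podocyte to proximal tubule genes varied between the animals. The mean log2 CPM of podocyte genes minus that of proximal tubule genes was 1.84 ± 0.58 (SD, n = 5), with 2.52, 1.47, 2.30, 1.099 and 1.83 in wild type 1 to 5. Other differences between lists varied too: podocyte minus glomerular endothelium ran from -1.70 to -0.998, and thick ascending limb minus proximal tubule from -2.11 to -0.42. In wild type 3, 5 of 7 mesangial genes were lowest and 19 of 23 podocyte genes were highest. The part of cell proportions in these values was not tested. Proximal tubule genes were the highest in wild type 4 for 20 of 22, and the list mean there was 0.60 above the mean of the animals. The SD of that list was 0.40, and 0.25 without wild type 4. Slc34a1 read 558, 631, 702, 1263 and 473 CPM. The order was not that of every member, since Kap, a kidney androgen-regulated gene, read 15.7, 199, 31.0, 31.8 and 89.6 CPM with wild type 2 the highest.

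Podocyte genes were highest in wild type 3 for 19 of 23 and in wild type 1 for the other 4, with an SD of the list mean of 0.32. Tcf21, a transcription factor of podocytes, had the widest spread of the list, with 345, 163, 316, 118 and 110 CPM, and Cd2ap, an adaptor at the slit diaphragm, the smallest, from 96.3 to 124 CPM. Of the 23 genes 1 (4.35%) had a coefficient of 0.3 or more. That share was 12.8% over all genes fitted and 2.64% among those at 10 CPM or more. The median coefficient of the podocyte list was 0.201, against 0.157 among genes at 10 CPM or more. Among lists with several members, glomerular endothelium had the smallest SD of the list mean, at 0.06, or 0.025 without wild type 1. Its members did not all move together. Plat read 7731, 10239, 10309, 7103 and 6773 CPM in wild type 1 to 5, and Lpl 297, 315, 263, 351 and 363 CPM. The median coefficient of its genes was 0.151, near the 0.157 among all genes at 10 CPM or more. Gata5 read 247, 240, 253, 240 and 242 CPM. The mesangial list had an SD of 0.22, between the podocyte and the endothelial values.

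**Figure D5:**
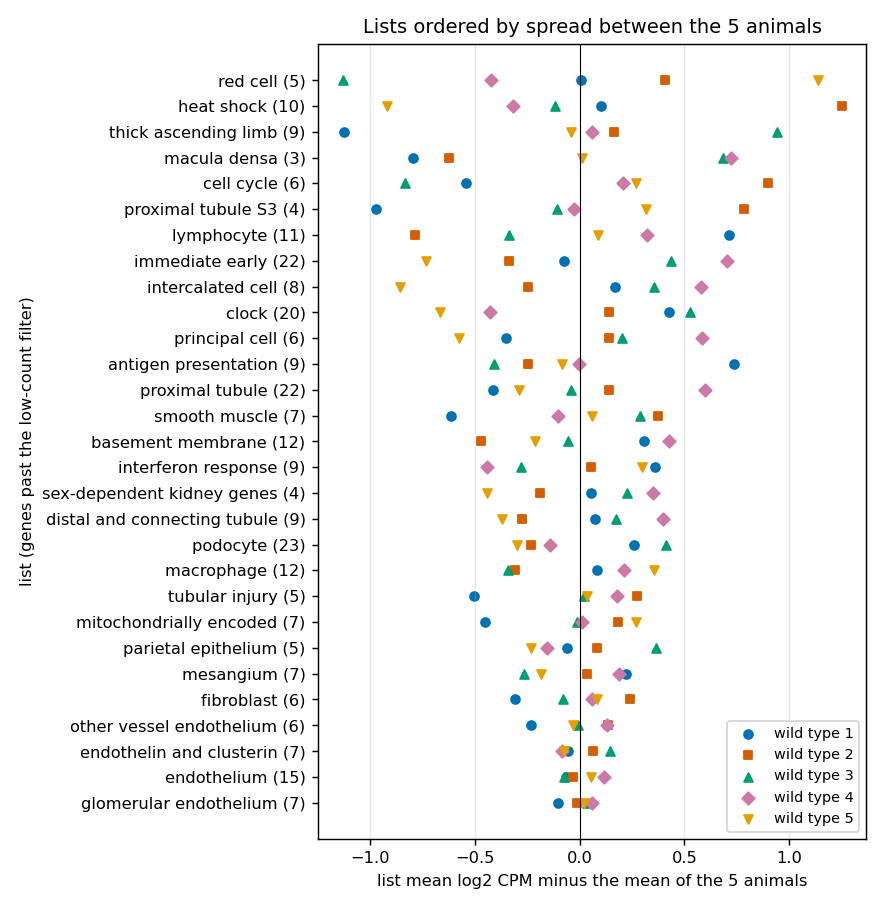
Mean log2 CPM of each list with 3 or more genes past the low-count filter, as the difference of each animal from the mean of the 5, with lists ordered by their SD. The means of the red cell, heat shock and thick ascending limb lists spread the most, and that of glomerular endothelium (SD 0.06) the least.

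Thick ascending limb genes were lowest in wild type 1 for 9 of 9 and highest in wild type 3 for 8. Umod (chr7:119462711-119479282) read 175, 367, 696, 405 and 379 CPM, and Slc12a1 read 114, 301, 606, 330 and 329 CPM. Cldn16, a claudin of that segment, had the largest ratio of highest to lowest animal, with 1.90, 6.55, 12.6, 6.01 and 6.18 CPM, and the potassium channel Kcnj1 the smallest ratio, from 41.1 to 99.1 CPM. Of the 9 genes 8 had a coefficient of 0.3 or more, against 12.8% of all genes fitted. The SD of the list mean was 0.74, and 0.44 without wild type 1. Renin and Akr1b7, both of renin cells, were also highest in wild type 3 and lowest in wild type 1, with 953 and 324 CPM for Ren1. The intercalated cell list was lowest in wild type 5 for 7 of 8, and the principal cell list lowest there for 4 of 6.

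Wild type 1 had the highest level of all 9 genes of the antigen presentation list. H2-Q6, a class I gene outside the list, was highest in wild type 2, with 2603, 3061, 2274, 1894 and 2525 CPM in wild type 1 to 5. H2-D1 read 3464, 1769, 1612, 1780 and 1702 CPM, H2-K1 read 1660, 668, 666, 749 and 699 CPM, and Cd74, the chain that accompanies class II molecules, 555, 268, 245, 441 and 345 CPM. In H2-D1 and H2-K1 the other 4 animals lay close together. Tap1, a peptide transporter, ranged from 38.6 to 111 CPM, and Psmb8, a proteasome subunit, had the smallest spread (51.2 to 99.1 CPM). The SD of the list mean was 0.44, and 0.18 without wild type 1. In the same animal 9 of 11 lymphocyte genes were the highest, and Jchain read 111 CPM against 30.1 to 51.6 in the others. Vcam1 read 435 CPM there against 128 to 198. The interferon response list was highest in wild type 1 for 4 of 9 genes and in wild type 5 for 5. The part of the lymphocyte genes in the antigen presentation values was not tested.

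Levels of red cell genes differed as well. Of the 5 red cell genes past the filter, all were highest in wild type 5 and lowest in wild type 3, with 122, 153, 57.0, 88.3 and 283 CPM for Hbb-bs, a beta-globin gene with a near-identical copy. Alas2, the heme enzyme of red cells, which has no such copy, read 14.7, 19.7, 7.61, 11.7 and 29.9 CPM in the same order. Macrophage genes were highest in wild type 5 for 5 of 12 and in wild type 4 for 4, and Lyz2 read 536 CPM in wild type 5 against 155 to 371 in the others. The cell cycle genes were low, with Mki67 at 1.56 ± 0.736 TPM, and 5 of 6 were highest in wild type 2. Mitochondrially encoded genes were lowest in wild type 1 for all 7 past the filter.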

How the data were processed

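Poly(A) RNA was made into libraries with a TruSeq v2 kit, which does not mark strand, and sequenced in single-end reads of 50 bases, per the labels' protocols. The authors deposited raw read counts per gene, on GRCm38 with STAR and HTSeq per the submitters' processing notes. For tool versions, annotation release and counting settings the sources used here give nothing. Normalized log2 values, also deposited, served only as an alternative. Summary lines that name no gene were dropped: multi-mapped reads were 23.4% to 28.1% of a library, reads outside genes 6.26% to 8.58% and ambiguous reads 3.19% to 3.37%. Of 53379 gene IDs, 50604 matched GENCODE M21 with their version.

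TPM was computed from counts and the union of exons. CPM used TMM factors, and log2 CPM a prior count of 2. The biological coefficient of variation came from edgeR 4.0.16 (R 4.3.3) with an intercept alone, after its low-count filter. It is shrunk toward a trend fitted over the level of the genes. On data simulated on these 5 libraries (15410 genes, 10026 at 10 CPM or more) with 200 genes given a coefficient of 1, a threshold of 0.5 found 38.5% of them where the other genes shared one spread and 66.0% where each kept its own, so counts past 0.5 miss wide genes. DESeq2 1.42.0 gave the alternative size factors, and Python 3.11.15 with pandas 2.3.3, numpy 2.4.6 and scipy 1.17.1 gave the other values.

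The named genes were the 25 with the highest TPM, the 20 widest and 10 steadiest at 10 CPM or more, and the members of 35 lists with 323 distinct genes. The members and lists were chosen with earlier results of these data known. The threshold of 0.3, the ratio of 4, the values of the other groups beside the wild type ones, the 9 motifs searched and the sequences printed were chosen after the values were seen. Some genes that meet the rule are not reported here. No test between groups was made, and the wild type replicate numbers only name animals. Alternatives tried were other lengths, other size factors, no low-count filter, protein-coding genes alone, the authors' log2 table, genes of 300 bases or more and leaving out each animal.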

Additional observations from a re-analysis of the deposited data

Results flagged for a closer look

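In groups of 5, a sample was singled out where its gap to the nearest other animal was large against the whole range, which chance does in about 1 of 20 groups. This picked 17 of 331 genes (5.14%), 3 of 17 library measures and 0 of 34 lists. The share of genes is near that 1 of 20, so the genes below are given as values only. Among library measures, wild type 1 had 40965108 gene reads (40970000 to 4 digits) against at most 31849374, and wild type 5 had the lowest protein-coding share (98.38%) and the highest TMM factor (1.049).

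Of the genes picked, H2-D1, H2-K1 and the class I activator Nlrc5 were high in wild type 1. H2-D1 was at 3464 CPM against 1612 to 1780, H2-K1 at 1660 against 666 to 749 and Nlrc5 at 24.74 against 6.16 to 8.73. The same animal was low in Col1a1, at 1.901 CPM against 7.01 to 8.09, and in Col3a1, at 3.654 against 8.27 to 10.3, but of the 6 fibroblast genes past the low-count filter 3 were lowest there and 3 highest. Akr1b7 was at 3.284 CPM against 9.95 to 11.3, Dlk1 at 21.58 against 111 to 124 and the lymphatic gene Lyve1 at 0.5432 against 2.17 to 3.38.

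Acsm2, the organic anion transporter Slc22a8 and the amino acid transporter Slc6a19, all of the proximal tubule list, were high in wild type 4. Acsm2 was at 272.1 CPM against 140 to 161, Slc22a8 at 158.2 against 61.8 to 81.1 and Slc6a19 at 85.77 against 31.2 to 40.6. Wild type 4 was also high in Cdh5, at 312.3 CPM against 219 to 229, and in Sox9, at 1.826 against 0.642 to 0.860. Wild type 2 was high in Myl9, at 1190 CPM against 694 to 774, and in Hspe1, at 20.84 against 9.09 to 10.6, and low in Trpv5, at 0.7063 against 1.48 to 1.96. Wild type 5 was low in Col1a2, at 80.68 CPM against 106 to 115.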

How the results depend on the processing

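No paired analysis was possible because a single group was described and its numbers only name animals. Over 66 summary results, 557 of 598 values under an alternative stayed within the limits set, and for single genes 3139 of 3337 did. Only the balance of podocyte to proximal tubule genes could change sign, and it did not. The other values cannot be negative, so they had no direction to turn. The cause of the other moves was not tested. Of the 25 most abundant genes, 14 were shared when ranked by CPM and 13 by the authors' log2 values, which do not divide by length. The median TPM of glomerular endothelium was 234 with the longest transcript and 280 with protein-coding genes alone, and with the longest transcript other vessels stood at 4.30 and parietal epithelium at 12.7. With the authors' log2 table the SD of the list mean was 0.063 for other vessels, 0.23 for smooth muscle, 0.35 for the S3 segment, 0.45 for macula densa, 0.35 for intercalated cells, 0.13 for fibroblasts, 0.33 for lymphocytes, 0.68 for neutrophils, 0.032 for adrenal cortex, 0.18 for nerve, 0.17 for tubular injury, 0.20 for sex-dependent genes and 0.053 for endothelin and clusterin genes. With no low-count filter it was 0.12 for fibroblasts, 0.81 for adipocytes, 0.34 for adrenal cortex and 0.22 for endothelin and clusterin genes, and there were 11769 genes with a biological coefficient of variation of 0.5 or more and 17299 genes with a biological coefficient of variation of 0.3 or more. With protein-coding genes alone it was 0.46 for sex-dependent genes. Leaving out 1 animal at a time moved the SD between 0.025 and 0.072 for glomerular endothelium, 0.087 and 0.18 for other vessels, 0.22 and 0.46 for smooth muscle, 0.34 and 0.72 for renin cells, 0.41 and 0.75 for the S3 segment, 0.44 and 0.85 for thick ascending limb, 0.14 and 0.33 for mitochondrial genes, 0.18 and 0.51 for antigen presentation and 0.12 and 0.35 for tubular injury, each lowest without wild type 1. It moved between 0.14 and 0.27 for parietal epithelium (lowest without wild type 3), 0.25 and 0.46 for proximal tubule (without 4), 0.34 and 0.64 for intercalated cells (without 5), and 0.51 and 1.28 for neutrophils and 0.44 and 0.92 for heat shock (both without 2). The count of genes at 0.5 or more lay between 36 (without wild type 1) and 92. Size factors and the low-count filter do not enter TPM or shares, and length does not enter the spread, so these gave no separate value. Only 1 of 7 adipocyte genes is in the authors' table, so that list's rank there is not comparable. With 5 animals and 29161833 to 40965108 gene reads, genes under about 1 CPM and copies that share reads are the least certain.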

Other observations

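A few genes outside the lists also differed widely between the 5 animals; they are given as values, chosen after they were seen. Fkbp5, Klf15 and Zbtb16 are known to respond to glucocorticoids, but no list of such genes was examined, so they do not stand for that response. Dusp1, which also responds to them, had another order: it was highest in wild type 4 (2520 CPM) and lowest in wild type 5 (1323 CPM). Fkbp5 read 60.7, 111, 119, 40.1 and 33.0 CPM in wild type 1 to 5, Klf15 46.5, 103, 71.1, 29.6 and 21.2 CPM, and Zbtb16 36.3, 82.8, 86.4, 16.9 and 20.3 CPM. In Fkbp5, Klf15 and Zbtb16, wild type 2 and 3 were the highest and wild type 4 and 5 the lowest. Mocs1, an enzyme of molybdenum cofactor synthesis, read 34.0, 3.27, 33.6, 4.28 and 3.86 CPM, with wild type 1 and 3 far above the others. Igha, the heavy chain of immunoglobulin A, read 422, 98.0, 158, 175 and 76.0 CPM, with wild type 1 the highest. No test of these values was made.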
